A study of Mus musculus with 5 samples.

Results

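Skeletal muscle fibers are slow or fast according to the myosin heavy chain they make, and a small set of DNA-binding factors and the calcium-regulated phosphatase calcineurin act on that choice. The 9 genes described here were taken from the deposited table by gene name: the fast-fiber factors Sox6, Tbx15, Six4 and its cofactor Eya1, the factor Maf, the homeobox factor Prox1, and from the calcineurin pathway the catalytic subunit Ppp3ca, the transcription factor Nfatc1 and the inhibitor Rcan1. The table holds 17015 genes and all 9 are in it. The rule that picks them reads the gene name and no measured value. Of the 8 that could be tested none passed the test between genotypes, and Prox1 was too low to be tested.

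As background, SOX6 represses slow-fiber genes in fast fibers, and the homeoprotein encoded by Six4, with EYA cofactors, activates fast-fiber genes. TBX15 is found mainly in glycolytic fast fibers, and the large MAF factors, Maf and Mafa among them, activate Myh4, the myosin of type 2B fibers. In slow fibers, nerve activity raises calcium, calmodulin activates calcineurin, and calcineurin removes phosphates from NFAT proteins so that they enter the nucleus. RCAN proteins bind calcineurin and inhibit it, and 1 group of Rcan1 transcripts is itself switched on by NFAT.

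RNA of tibialis anterior (TA) muscle, a fast-twitch leg muscle, was sequenced from 8-week-old male mice. The 3 WT control libraries came from Nrip1 fl/fl littermates without Cre, and the 2 libraries labelled skmNrip1-/- from Nrip1 fl/fl mice that carried myogenin-Cre, a Cre driven by a promoter of differentiating muscle cells. All mice thus carried the floxed Nrip1 allele, Nrip1 encoding the transcriptional coregulator RIP140, and other cell types of the muscle are not targets of this Cre. The comparison asks whether loss of RIP140 from muscle fibers changes the level of fiber-type regulators.

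Expression was given as FPKM, in which fragments are normalized to transcript length and library size, so levels can be set side by side between genes. Nrip1 stood at 4.64, 7.69 and 6.55 FPKM in WT control replicates 1 to 3 and at 25.3 and 22.5 FPKM in the libraries labelled skmNrip1-/- (log2 fold change 1.94 ± 0.21, SE; limma adjusted p = 0.0261). The targeted gene was therefore higher where the label says that it was deleted. The value sums every transcript of the gene (chr16:76287400-76373827, GRCm38) and does not separate the floxed exon. It therefore does not check the deletion itself, and every direction below rests on the labels. The study checked this mouse line by Nrip1 RNA and RIP140 protein in gastrocnemius and heart, which does not cover these TA libraries. Without WT control replicate 3 (adjusted p = 0.146), or without the first (0.204) or the second (0.142) library labelled skmNrip1-/-, Nrip1 no longer passed.

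The FPKM of each library summed to between 969144 and 1288040, and the fragments behind them are not given, so depth is unknown. Genes were tested with limma on log2(FPKM + 0.1) in those 12148 whose mean reached 0.5 FPKM. A gene counted as called when its Benjamini-Hochberg adjusted p did not exceed 0.05 and its level differed 1.2-fold or more. Fold changes on this scale are understated for low genes. The 8 muscle identity markers were abundant in every library, with 0 of 8 called. Their sum was 32499 to 42995 FPKM in the controls and 29080 to 30723 FPKM in the libraries labelled skmNrip1-/-. Most of it was Acta1 and Ckm, the only 2 of the 8 whose groups did not overlap, against 14.4% of all genes lower. The list's median log2 fold change was -0.05, with 2 genes above 0 and 6 below. Of the 10 marker lists, the 5 blood genes (hemoglobins and Alas2) stood apart, with all 5 log2 fold changes above 0, a median of 0.51, summed levels of 511 to 764 FPKM against 827 to 996, and 0 called. Summed satellite cell markers (stem cells of muscle) also did not overlap, at 16.5 to 16.9 FPKM in the controls against 12.5 to 15.5 FPKM. Most of this sum was Myod1, which overlapped, and Cdh15 (5.58 ± 0.756 against 3.72 ± 0.0575 FPKM). Of the 6 genes, 3 were tested, all 3 below 0, with a median of -0.22 and 0 called. Pax7 was too low to be tested. Whether either list bears on any gene below was not tested. WT control replicate 3 also stood apart in several fiber-type genes and replicate 1 in the fast-fiber list, given beside the results it touches. In bulk tissue, fewer cells of a type and less RNA per cell cannot be told apart.

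Of the 8 genes tested, 0 were called, where 0.453% of all tested genes were called in either direction (0.37% higher and 0.0823% lower). At an unadjusted p of 0.05 or less, 1 of the 8 passed (Maf), against 11.9% of all genes. The libraries of the groups did not overlap for 3 of the 8: Tbx15 lay higher in both libraries labelled skmNrip1-/-, and Maf and Ppp3ca lay lower, where 30.2% of all tested genes did not overlap. These counts are near the background and are not a result about the 8 genes as a group. The median log2 fold change of the 8 was -0.10, against -0.00 for all tested genes, with 3 above 0 and 5 below.

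**Figure D1:**
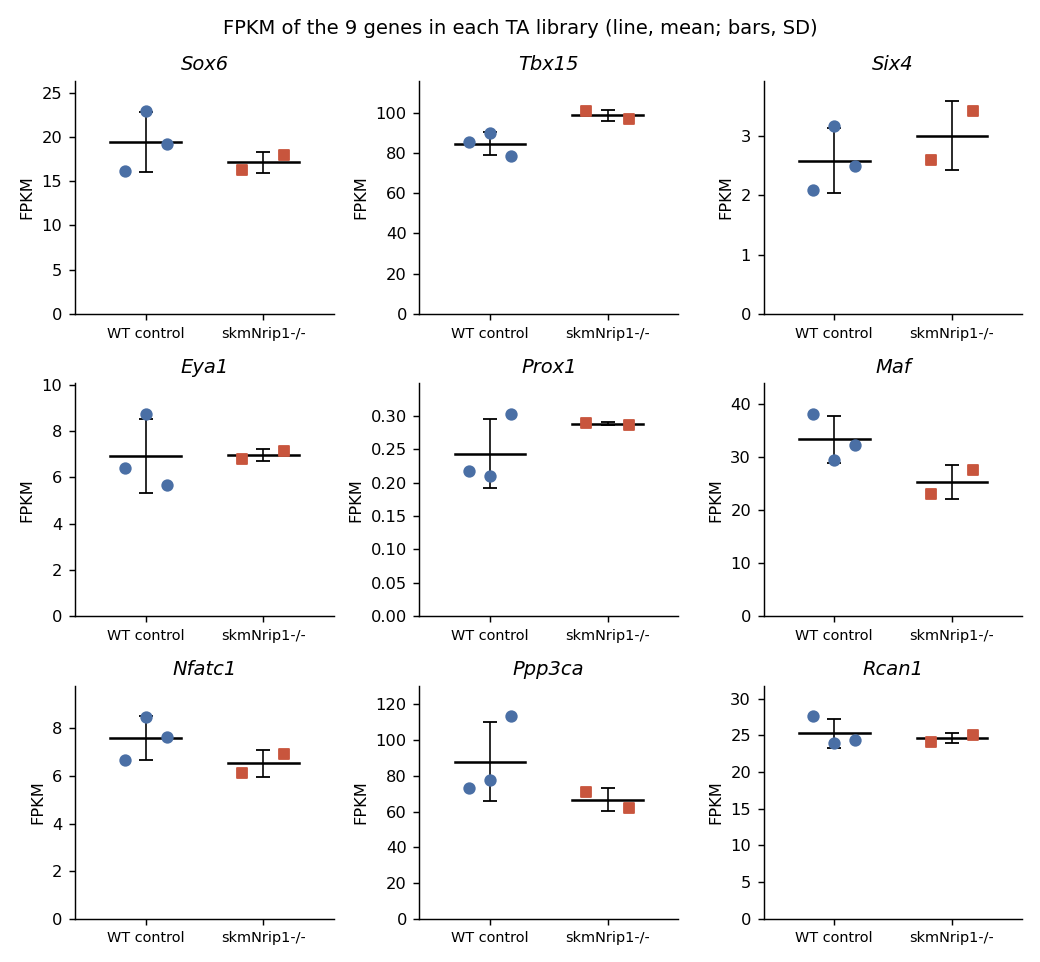
FPKM of the 9 genes in each library, with WT controls as blue circles and libraries labelled skmNrip1-/- as red squares; the black line is the group mean and the bars are the SD. The groups do not overlap for Tbx15, Maf and Ppp3ca, and the Ppp3ca mean of the controls is raised by replicate 3 at 113.3 FPKM.

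In WT control TA, the levels of the 9 genes spanned a wide range. Ppp3ca averaged 88.0 ± 22.1 FPKM (SD, n = 3) and Tbx15 84.6 ± 5.67 FPKM, and their ranges overlapped, so their order is not set beyond the spread. They exceeded 93.8% and 93.6% of the tested genes. Maf (33.3 ± 4.40 FPKM), Rcan1 (25.3 ± 2.02) and Sox6 (19.5 ± 3.35) followed, each separated from the next by its control range. Nfatc1 (7.59 ± 0.909 FPKM) and Eya1 (6.93 ± 1.604) overlapped, Six4 was lower (2.59 ± 0.547), and Prox1 was the lowest at 0.243 ± 0.0515 FPKM. In the libraries labelled skmNrip1-/-, Tbx15 stood above Ppp3ca and Eya1 above Nfatc1 by their means, and the ranges of Maf (23.0 to 27.5 FPKM) and Rcan1 (24.2 to 25.1 FPKM) now overlapped.

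Among the fast-fiber factors, Tbx15 had the clearest separation between groups, without passing the test. Tbx15 (chr3:99240381-99354259) was at 85.3, 89.9 and 78.6 FPKM in the controls and at 100.6 and 96.6 FPKM in the libraries labelled skmNrip1-/-. Both of the latter lay above every control. The log2 fold change was 0.22 ± 0.11 (SE), with a 95% interval of -0.03 to 0.47 (limma adjusted p = 0.480). On the TPM scale, which sets every library to the same total and moves the median of all genes by -0.29, the Tbx15 value turned to -0.077, or 0.21 relative to that median.

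Sox6, the repressor of slow genes, overlapped between groups. Sox6 (chr7:115470872-116038796) was at 16.2, 22.9 and 19.2 FPKM in the controls and at 16.3 and 17.96 FPKM in the libraries labelled skmNrip1-/-, so both of these fell inside the control range. Its log2 fold change was -0.17 ± 0.16, with an interval of -0.55 to 0.21 (limma adjusted p = 0.753). It was -0.045 without WT control replicate 2, the highest library, -0.29 without replicate 1, and -0.10 without the first library labelled skmNrip1-/-. That interval still holds a decrease of the size estimated for Maf.

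Six4 was at 2.09, 3.18 and 2.49 FPKM in the controls and at 2.60 and 3.42 FPKM in the libraries labelled skmNrip1-/- (chr12:73099609-73113456). The groups overlapped and the log2 fold change was 0.22 ± 0.22, with an interval of -0.30 to 0.73 (limma adjusted p = 0.769; -0.072 on the TPM scale). Single libraries moved it widely: it was 0.080 without WT control replicate 1 and 0.37 without replicate 2, and 0.41 and 0.026 without the first and the second library labelled skmNrip1-/-. Its paralog Six5 was lower still, at 0.647 ± 0.138 FPKM in the controls and 0.545 ± 0.180 FPKM in the libraries labelled skmNrip1-/- (log2 fold change -0.22 ± 0.31, limma adjusted p = 0.839).

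Eya1, the cofactor of Six4, had a log2 fold change near 0. It was at 6.38, 8.74 and 5.67 FPKM in the controls and at 6.78 and 7.15 FPKM in the libraries labelled skmNrip1-/- (chr1:14168954-14310235), with control replicate 2 the highest of the 5. The log2 fold change was 0.03 ± 0.19, with an interval of -0.43 to 0.49 (limma adjusted p = 0.974). Its sign was not stable, as it was -0.02 without WT control replicate 1, -0.10 without replicate 3 and -0.01 without the second library labelled skmNrip1-/-, and -0.26 on the TPM scale. Eya1 held 35.3, 40.8 and 31.8% of the EYA sum in the controls and 35.9 and 36.3% in the libraries labelled skmNrip1-/-, close to Eya4 (38.0 ± 3.999% and 37.7 ± 0.0219%). Eya2, Eya3 and Eya4 had log2 fold changes of -0.49, 0.14 and 0.01, with limma adjusted p-values of 0.576, 0.758 and 0.986. The values for Eya3 and Eya4 turned to -0.15 and -0.28 on the TPM scale.

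**Figure D2:**
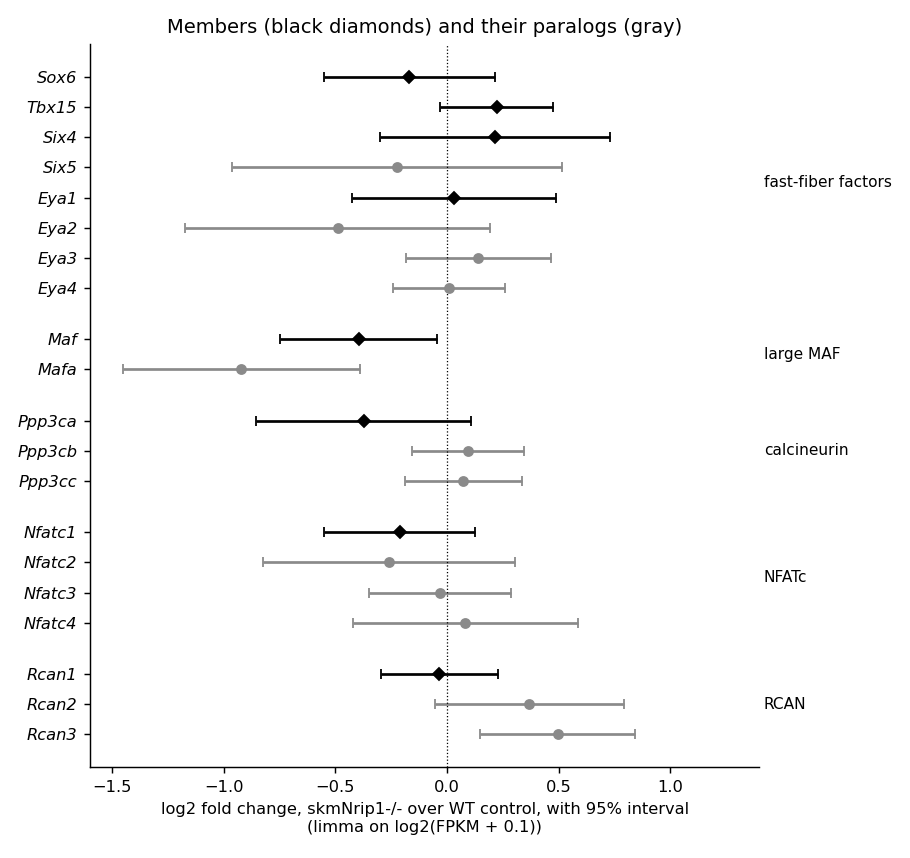
Log2 fold changes, libraries labelled skmNrip1-/- over WT controls, with 95% intervals from limma on log2(FPKM + 0.1); black diamonds are the genes chosen here and gray circles their paralogs. The intervals of Maf, Mafa and Rcan3 lie on 1 side of 0, and none of these passed the adjustment over 12148 genes.

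Maf had the smallest unadjusted p of the 8 genes tested. Maf (chr8:115682942-115707794) was at 38.1, 29.5 and 32.3 FPKM in the controls and at 23.0 and 27.5 FPKM in the libraries labelled skmNrip1-/-. All 3 controls lay above both of these, the nearest pair being 29.5 and 27.5 FPKM. The mean was 25.3 ± 3.18 FPKM (SD, n = 2) against 33.3 ± 4.40 FPKM, a ratio of 0.759. The log2 fold change was -0.39 ± 0.15, with an interval of -0.75 to -0.04, and it failed the adjustment (limma adjusted p = 0.366). Over the 14 alternatives it ranged from -0.69 to -0.27, and the smallest adjusted p was 0.0619, on the TPM scale.

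Mafa, a large MAF gene like Maf, also had a log2 fold change below 0. It was at 28.2, 17.2 and 26.8 FPKM in the controls and at 13.1 and 11.7 FPKM in the libraries labelled skmNrip1-/-, a log2 fold change of -0.92 ± 0.22 with an interval of -1.45 to -0.39 (limma adjusted p = 0.197). The groups did not overlap, and the gene did not pass the adjustment. Without WT control replicate 2, the lowest control for Mafa, Mafa passed at -1.15 (limma adjusted p = 0.0420).

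With 3 against 2 libraries an exact permutation test has 10 splits and cannot give a one-sided p below 0.1, or 0.2 when doubled for both sides, so the shares of paralogs in the sum of a family are given as a description. Maf is also made by macrophages, whose 6 markers summed to 4.78 to 10.9 FPKM in the controls and to 7.06 to 8.12 FPKM in the libraries labelled skmNrip1-/-, so the latter lay inside the control range.

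**Figure D3:**
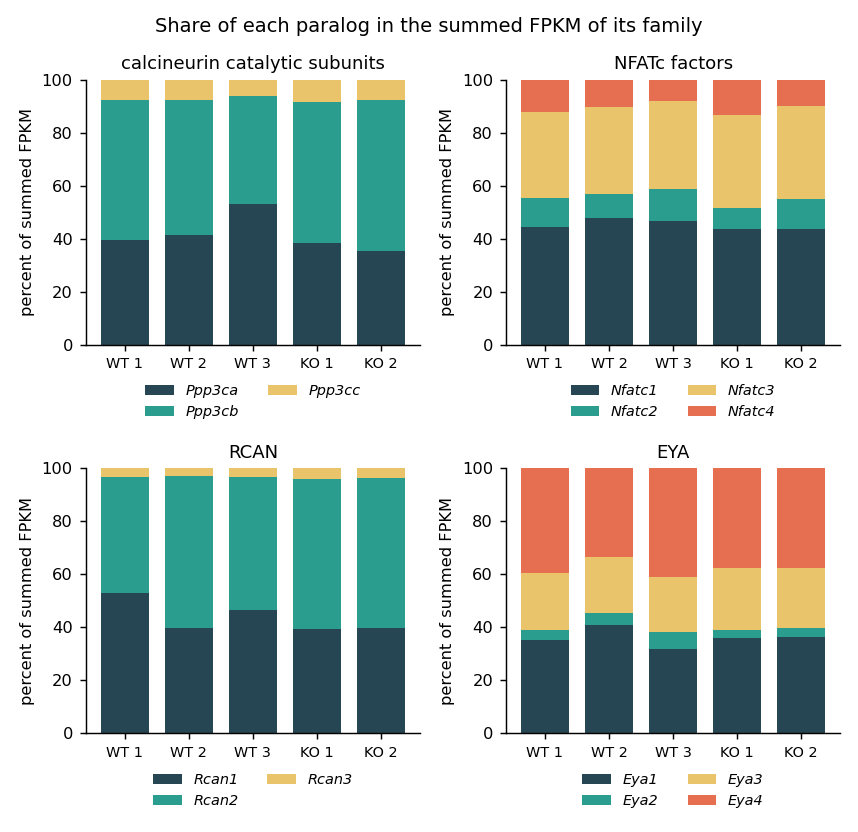
Share of each paralog in the summed FPKM of its family, in percent, in each library (WT 1 to 3, WT controls; KO 1 and 2, libraries labelled skmNrip1-/-). Ppp3ca takes 53.2% of the calcineurin sum in WT control 3.

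The tested genes whose profile lay closest to that of Maf were Calm2, Afmid and Kank3, by the root mean square distance of log2 values centered on each gene's mean over the 5 libraries (0.0234, 0.0306 and 0.0383). Calm2 encodes calmodulin, and was at 142.8, 112.8 and 125.4 FPKM in the controls and at 90.7 and 105.3 FPKM in the libraries labelled skmNrip1-/-. That gave a log2 fold change of -0.37 ± 0.14 (limma adjusted p = 0.362). These 3 genes were sought as the closest of 12148, so a short distance was bound to be found.

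Prox1, which defines lymphatic endothelium and is also made in slow muscle fibers, was barely detected. It was at 0.218, 0.209 and 0.303 FPKM in the controls and at 0.289 and 0.287 FPKM in the libraries labelled skmNrip1-/- (chr1:190118035-190170714). The latter lay inside the control range. The mean of Prox1 was under the minimum of 0.5 FPKM that set the tested genes, so it was not ranked among them. With no minimum on FPKM, the log2 fold change was 0.19 ± 0.22, with an interval of -0.36 to 0.73 (limma adjusted p = 0.849 over 17015 genes). Lymphatic endothelial markers summed to 7.59 to 9.90 FPKM in the controls and to 6.15 to 7.97 FPKM in the libraries labelled skmNrip1-/-, also overlapping. Exons of Prox1 share 133 bases with the antisense gene Prox1os and those of Maf 440 bases with Gm15655, and the kit does not mark strand, so reads of each pair cannot be told apart there.

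In the calcineurin pathway, the 3 genes had log2 fold changes below 0 and none passed. Ppp3ca, the alpha catalytic subunit (chr3:136670124-136937727), was at 73.1, 77.5 and 113.3 FPKM in the controls and at 71.2 and 62.3 FPKM in the libraries labelled skmNrip1-/-. Both of the latter lay below every control, but the first only narrowly, and control replicate 3 stood far above the rest. The log2 fold change was -0.37 ± 0.20, with an interval of -0.85 to 0.11 (limma adjusted p = 0.543), and it was -0.18 without control replicate 3.

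Control replicate 3 was also the highest library for several other fiber-type genes, though not for all. Myh4 was lowest of the controls there, at 6839 FPKM against 8478 and 7851 FPKM. Myh2, the myosin of type 2A fibers, was at 223 and 333 FPKM in the other controls, 1102 FPKM in replicate 3, and 363 and 406 FPKM in the libraries labelled skmNrip1-/-. Csrp3, a protein of the sarcomere's Z-disc, was at 177, 99.1 and 478 FPKM in the controls and at 101.0 and 63.6 FPKM in the libraries labelled skmNrip1-/-. Myoz2, a Z-disc protein that binds calcineurin, was at 61.3, 48.0 and 135.0 FPKM against 39.8 and 34.7 FPKM. Myl3, the slow essential light chain, was at 89.6, 124.4 and 285 FPKM against 54.1 and 71.3 FPKM. The part that this library's make-up plays in the Ppp3ca value was not tested beyond leaving it out.

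**Figure D4:**
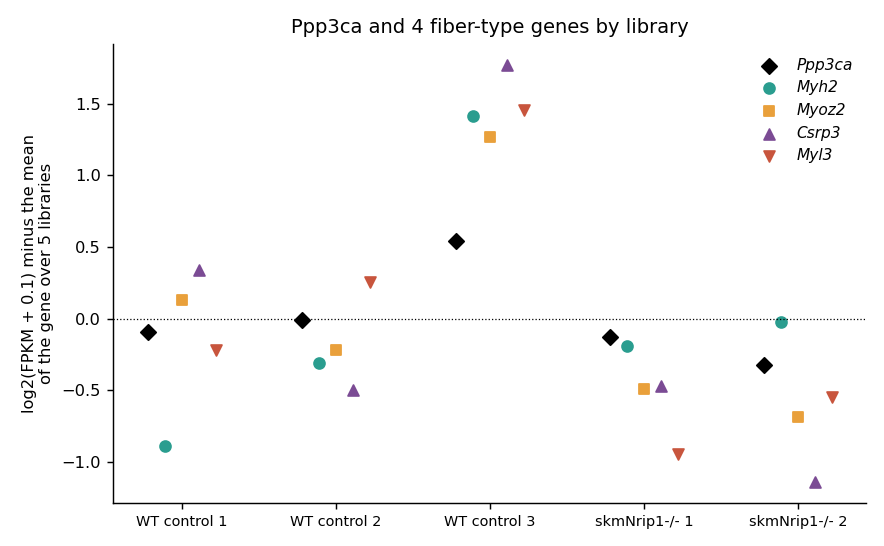
Ppp3ca (black diamonds) and 4 fiber-type genes in each library, as log2(FPKM + 0.1) minus the gene's mean over the 5 libraries. WT control 3 is the highest library for all 5 genes shown, but not for every fiber-type gene. Ppp3ca in the other controls (73.1 and 77.5 FPKM) lies near the first library labelled skmNrip1-/- (71.2 FPKM).

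The beta catalytic subunit Ppp3cb was at 98.6, 95.2 and 86.4 FPKM in the controls and at 98.9 and 100.2 FPKM in the libraries labelled skmNrip1-/- (log2 fold change 0.09 ± 0.10, limma adjusted p = 0.797; -0.20 on the TPM scale). Ppp3cc, the gamma subunit, averaged 13.8 ± 0.505 FPKM in the controls against 14.5 ± 1.26 FPKM (log2 fold change 0.07, limma adjusted p = 0.852; -0.22 on the TPM scale). Ppp3ca held 39.3, 41.5 and 53.2% of the summed catalytic subunits in the controls and 38.4 and 35.3% in the libraries labelled skmNrip1-/-. The difference of the mean shares was -7.81 percentage points, and -3.54 without control replicate 3. Ppp3cb was the larger part in every library except that one, where Ppp3ca was.

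Nfatc1, the NFAT protein best known from slow fibers (chr18:80606205-80713071), was at 6.66, 8.48 and 7.64 FPKM in the controls and at 6.13 and 6.92 FPKM in the libraries labelled skmNrip1-/-. The second of these lay inside the control range. The log2 fold change was -0.21 ± 0.14, with an interval of -0.55 to 0.13 (limma adjusted p = 0.633). It was -0.13 without control replicate 2 and also without the first library labelled skmNrip1-/-. Nfatc1 was the most abundant of the 4 calcineurin-regulated NFAT genes in each library, with 44.3, 47.9 and 46.6% of their sum in the controls and 43.5% in both libraries labelled skmNrip1-/-. Nfatc3 followed with 32.8 ± 0.646% and 35.03 ± 0.136%. Nfatc2, Nfatc3 and Nfatc4 had log2 fold changes of -0.26, -0.03 and 0.08, and limma adjusted p-values of 0.743, 0.957 and 0.919. The level of NFAT RNA does not measure NFAT activity, which depends on where the protein is in the cell.

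Rcan1, the inhibitor and an NFAT target, hardly differed. It was at 27.6, 23.9 and 24.3 FPKM in the controls and at 24.2 and 25.1 FPKM in the libraries labelled skmNrip1-/- (chr16:92391953-92470867). The latter lay within the control range, and the log2 fold change was -0.03 ± 0.11, with an interval of -0.30 to 0.23 (limma adjusted p = 0.937). It turned to 0.03 without control replicate 1, and was -0.33 on the TPM scale, or -0.04 relative to the median of all genes there.

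The Rcan1 value adds up transcripts from separate promoters, and the deposited table does not divide them. Of its 7 annotated transcripts, 1 starts at an internal promoter (first base 92400077 on chromosome 16, minus strand) and another at an upstream one (first base 92466146). The RefSeq promoter windows (GRCm38.p6, minus strand, 250 bases before to 50 after the start) are shown because NFAT acts on 1 of them, with every GGAAA, the core of the NFAT site, and its reverse complement TTTCC in capitals, no 2 of which overlap.
Internal promoter, chr16:92400029-92400328: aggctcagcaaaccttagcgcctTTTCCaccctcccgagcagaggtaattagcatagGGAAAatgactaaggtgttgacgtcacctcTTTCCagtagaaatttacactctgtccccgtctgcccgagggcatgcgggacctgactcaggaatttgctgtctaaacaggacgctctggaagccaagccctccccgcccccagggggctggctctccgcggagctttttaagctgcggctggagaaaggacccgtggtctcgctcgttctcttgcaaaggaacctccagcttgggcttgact
Upstream promoter, chr16:92466120-92466419: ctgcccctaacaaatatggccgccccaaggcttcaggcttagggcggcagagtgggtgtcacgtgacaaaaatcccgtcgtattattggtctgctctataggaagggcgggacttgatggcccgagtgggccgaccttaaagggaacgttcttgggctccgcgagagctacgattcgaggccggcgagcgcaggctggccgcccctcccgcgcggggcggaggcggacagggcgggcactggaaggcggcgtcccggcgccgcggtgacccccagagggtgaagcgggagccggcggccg
The internal window holds 3 such matches and the upstream window 0. Of 32851 RefSeq windows of this length, 61.3% hold at least 1 match and 9.42% hold 3 or more, so the letters alone are common. A match is not a bound site, and a change of the internal transcript that the others offset would not show in the gene's total. Windows were given for 4 of the 9 genes (Rcan1, Sox6, Six4 and Prox1).

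The related inhibitors lay on the other side of 0. Rcan2 was at 22.8, 34.3 and 26.1 FPKM in the controls and at 34.9 and 35.7 FPKM in the libraries labelled skmNrip1-/- (log2 fold change 0.37 ± 0.18, limma adjusted p = 0.487; 0.24 without control replicate 1). Rcan3 was at 1.59, 1.72 and 1.66 FPKM against 2.43 and 2.33 FPKM (log2 fold change 0.50 ± 0.15, interval 0.15 to 0.84, limma adjusted p = 0.271). Both were higher in each library labelled skmNrip1-/- than in any control, and neither passed the adjustment. Rcan1 held 53.1, 39.9 and 46.7% of the RCAN sum in the controls and 39.3 and 39.8% in the libraries labelled skmNrip1-/-. Control replicate 2 lay beside the latter.

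Beyond the 9 genes, a list of 25 fiber-type transcription factors that includes 6 of them gave 24 tested genes, of which 0 were called in either direction. The log2 fold change was above 0 for 14 and below 0 for 10, with a median of 0.02. At an unadjusted p of 0.05 or less, 3 of 24 were higher, Dach2 among them, and 2 lower (Mafa and Maf), against 6.57% and 5.33% of all genes. The libraries did not overlap for 4 that were higher (Tbx15 and Dach2 among them) and 4 that were lower (Mafa, Maf, Vgll2 and Tead4), against 15.8% and 14.4% of all genes. Dach2, a partner of EYA proteins, was at 0.667, 1.95 and 0.652 FPKM in the controls and at 2.48 and 2.71 FPKM in the libraries labelled skmNrip1-/-. That gave a log2 fold change of 1.35 ± 0.45 (limma adjusted p = 0.319), and without control replicate 2 it was 1.83 and passed (adjusted p = 0.0428). Vgll2, a cofactor of TEAD proteins, averaged 54.4 ± 4.40 FPKM in the controls and 44.9 ± 3.79 FPKM in the libraries labelled skmNrip1-/- (log2 fold change -0.28, limma adjusted p = 0.427), and Tead4 1.73 ± 0.323 against 1.22 ± 0.175 FPKM (-0.46, adjusted p = 0.483).

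The calcineurin-NFAT list, with subunits, calmodulins, NFAT genes, inhibitors and the kinases that oppose calcineurin, also gave 24 tested genes of 25 and 0 calls. Of these, 9 had a log2 fold change above 0 and 15 below, with a median of -0.08. At an unadjusted p of 0.05 or less, 1 of 24 was higher (Rcan3), against 6.57% of all genes. Another 3 were lower (Myoz2, Dyrk1b and Calm2), against 5.33%. Dyrk1b, a kinase, was at 21.1, 22.02 and 26.8 FPKM in the controls and at 16.2 and 17.95 FPKM in the libraries labelled skmNrip1-/- (log2 fold change -0.44 ± 0.14, limma adjusted p = 0.293). Myoz2 had the lowest log2 fold change of the list (-0.98 ± 0.40, limma adjusted p = 0.414), and its control values were spread by replicate 3 as given above. The libraries did not overlap for 3 genes that were higher (Ppp3cb, Rcan2 and Rcan3) and 6 that were lower, including Ppp3ca, against 15.8% and 14.4% of all genes.

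Genes of the fast and slow fiber programs were given by lists of 15 genes each, all tested and with 0 called. In the fast list 1 gene lay above 0 (Myh1, 0.05, which turned to -0.25 on the TPM scale and -0.11 without control replicate 1) and 14 below, with a median of -0.22 against -0.00 for all genes. Control replicate 1 stood apart in this list: as log2 values centered on each gene's mean, the list median was 0.43 there, 0.01 and 0.03 in the other controls, and -0.18 in both libraries labelled skmNrip1-/-. Without control replicate 1 the median log2 fold change was -0.17, Mybpc2 was -0.27 and Myh4 -0.14. Myh4, the type 2B myosin, averaged 7723 ± 827 FPKM in the controls and 6663 ± 349 FPKM in the libraries labelled skmNrip1-/- (log2 fold change -0.21 ± 0.17, limma adjusted p = 0.706). The lowest of the list was Actn3, the fast-fiber alpha-actinin, at 3558, 2712 and 2701 FPKM in the controls and at 1739 and 1744 FPKM in the libraries labelled skmNrip1-/- (-0.77 ± 0.17, limma adjusted p = 0.169). Mylk2, the skeletal myosin light chain kinase, Casq1, the fast calsequestrin, and Mybpc2, the fast myosin-binding protein C, had log2 fold changes of -0.53, -0.48 and -0.40 (limma adjusted p = 0.241, 0.340 and 0.406). For 8 of the 15 every control lay above both libraries labelled skmNrip1-/-, against 14.4% of all genes. On the TPM scale Actn3 (-1.07, adjusted p = 0.0213) and Mylk2 (-0.83, adjusted p = 0.0485) were called by limma. That scale moves the median of all genes by -0.29 and gave 59 genes called lower, against 10.

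In the slow list 7 genes lay above 0 and 8 below, with a median of -0.01, and they did not move together. Myl2, the slow regulatory light chain, was at 2.03, 1.85 and 9.68 FPKM in the controls and at 42.1 and 33.6 FPKM in the libraries labelled skmNrip1-/-, the largest log2 fold change of the list (3.46 ± 0.67, limma adjusted p = 0.127). Without control replicate 3 it was 4.21 and passed (adjusted p = 0.00446). Without control replicate 1 or 2 it was 3.11 and 3.05 and did not pass (adjusted p = 0.226 and 0.166). Mb, myoglobin, was at 4522, 4329 and 5157 FPKM against 7764 and 7664 FPKM (0.73 ± 0.16, limma adjusted p = 0.160). Myl3, given above, lay lower in both libraries labelled skmNrip1-/- (-1.24 ± 0.45, limma adjusted p = 0.359), as did Myoz2. Csrp3 had the lowest value (-1.34 ± 0.61, limma adjusted p = 0.461). Without control replicate 3 these values were -0.76 for Myl3, -0.55 for Myoz2 and -0.72 for Csrp3. Myh7, the slow myosin, was at 0.659, 0.648 and 0.751 FPKM in the controls and at 1.72 and 0.449 FPKM in the libraries labelled skmNrip1-/-, which lay on either side of the controls. The Myh2 value was -0.18 ± 0.61, and 0.49 without control replicate 3.

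**Figure D5:**
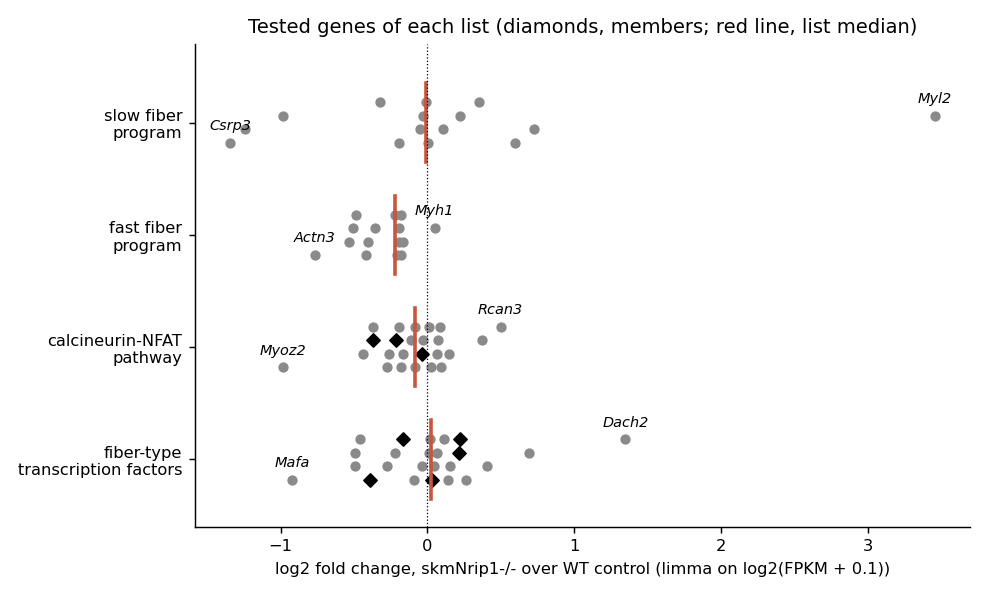
Log2 fold changes of the tested genes of 4 lists, libraries labelled skmNrip1-/- over WT controls; black diamonds are the genes chosen here, red lines the list medians, and names mark the lowest and highest gene of each list. The medians are -0.01, -0.22, -0.08 and 0.02 from top to bottom, and 14 of 15 fast-fiber genes lie below 0.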

How the data were processed

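RNA-seq covered 3 WT control libraries and 2 libraries labelled skmNrip1-/- of TA muscle (males, 8 weeks). Per the labels and the study's methods, reads were quantified with Salmon 1.10.2 on mm10 and collapsed to genes by tximport. The authors deposited FPKM per gene. How FPKM was computed and the annotation release are not given in the sources used here. The deposited values give each library the same median ratio (1.00). The authors also deposited log2 fold changes and adjusted p-values from DESeq2 1.44.0, which were not used. The study's legend gives more mice in the knockout group than the 2 libraries analysed here. Whether each library is a single mouse is not given in the labels, so p-values measure the spread between these libraries.

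The groups were compared in R 4.3.3 with limma 3.58.1 (lmFit, eBayes with trend) on log2(FPKM + 0.1), all 5 libraries in 1 fit without covariates, for the 12148 genes whose mean reached 0.5 FPKM. Tables and figures used Python 3.11.15, pandas 2.3.3, numpy 2.4.6 and matplotlib 3.10.9. The fit was tested on simulated data. Positions and transcripts came from GENCODE M21 (GRCm38), which holds 16996 of the IDs. FPKM give no counts, so no counting intervals are given.

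The genes and lists were chosen with earlier results of these data known. Named were the 9 genes, Nrip1, their paralogs, 4 myosins, the extremes of each list and the 3 genes nearest to Maf. The extremes of the marker lists met this rule, and most are not named. Some other genes that met it are not reported here. Calm2, Dyrk1b, Vgll2, Tead4, Casq1, Mybpc2, Mylk2, Mb, Myl3, Cdh15 and Myod1 were named after their values were seen. The marker lists were muscle, satellite cell, endothelium, lymphatic endothelium, fibroblast, macrophage, adipocyte, Schwann cell, smooth muscle and blood. Alternatives were pseudocounts of 1 and 0.01, a minimum of 1 FPKM or none, TPM or median-of-ratios scaling, eBayes without trend or robust, the replicate number as a block, each library left out, no fold threshold and an adjusted p of 0.01.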

Additional observations from a re-analysis of the deposited data

How the results depend on the processing

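No tested gene of the 9 was called under any of 14 alternatives each. Sox6, Maf, Nfatc1 and Ppp3ca stayed below 0 in all of them. Rescaling to TPM moved the median of all genes by -0.29 and gave 29 genes called higher and 59 lower, against 45 and 10. It turned Tbx15 to -0.077, Six4 to -0.072, Eya1 to -0.26, Eya3 to -0.15, Eya4 to -0.28, Myh1 to -0.25, Nfatc4 to -0.20, Ppp3cb to -0.20 and Ppp3cc to -0.22, and the medians of the transcription factor and calcineurin-NFAT lists to -0.27 and -0.37. The eBayes step without trend gave 22 higher and 3 lower and no longer called Nrip1 (limma adjusted p = 0.0769), and an adjusted p of 0.01 gave 14 and 3.

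Replicate numbers 1 and 2 occur in both groups, and the labels share only a number (correlations of deviations 0.0647 and 0.0952). With the replicate block, 18 genes were called higher and 4 lower. The block turned Eya1 to -0.10, Myh2 to 0.49 and Nfatc4 to -0.076, called Myl2 at 4.21 and no longer called Nrip1 (limma adjusted p = 0.128). WT control replicate 3 has no same-numbered partner and so does not enter that difference.

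Leaving out 1 library gave 6 to 51 genes called higher and 2 to 15 lower. Eya1 ranged from -0.10 to 0.21, Rcan1 from -0.073 to 0.030 and the calcineurin-NFAT median from -0.12 to -0.029. Among the other genes whose direction turned, Eya4 ranged from -0.020 to 0.040, Myh1 from -0.11 to 0.16, Myh2 from -0.66 to 0.49, Myh7 from -0.51 to 1.21 and Six5 from -0.51 to 0.065. Nfatc2 ranged from -0.59 to 0.068, Nfatc3 from -0.11 to 0.050, Nfatc4 from -0.076 to 0.20 and Ppp3cc from -0.014 to 0.16. The causes were not tested.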

Other observations

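Cell type lists not described above gave 0 calls each. Endothelial markers summed to 73.6 to 83.5 FPKM in the controls and to 67.7 to 78.7 FPKM in the libraries labelled skmNrip1-/-, and smooth muscle and pericyte markers to 143 to 157 and 147 to 153 FPKM. Fibroblast markers summed to 170 to 247 against 203 to 267 FPKM, adipocyte markers to 7.91 to 14.3 against 12.3 to 12.4 FPKM, and Schwann cell and nerve markers to 27.0 to 40.2 against 23.9 to 33.98 FPKM. The groups overlapped in each of these sums. All 4 tested Schwann cell and nerve genes had log2 fold changes below 0, with a median of -0.22. No marker of these lists was listed at 0 in any library, and none of the 9 genes is in them.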
